A study of Mus musculus with 6 samples.

Results

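The 10 genes described here encode the 5 subunits of the transcription factor NF-kappa-B (Nfkb1, Nfkb2, Rela, Relb and Rel), 3 of its inhibitors (Nfkbia, Nfkbib and Nfkbie) and 2 TNF-alpha-induced proteins (Tnfaip2 and Tnfaip3). They were chosen by name, from their known roles, among the 14883 genes of the count table, with earlier results of these data known. All 10 were present and passed the filter on low counts. Each was measured by RNA sequencing in B16F10luc2, a melanoma cell line from the mouse that carries a luciferase reporter. All samples were grown on elastic culture plates in DMEM with 10% fetal bovine serum at 37 °C, 21% oxygen and 5% CO2. In the static group (3 samples) the plates were not moved, and in the stretch group (3 samples) the cells were cyclically stretched for 24 h, with equal elongation of 15% along both axes and 15 cycles per minute. This is 1 cell line in culture, and no label says whether the 3 samples of a group came from separate cultures. The p-values below therefore reflect only how far these samples spread, which the main test pools in part over genes, and part of that spread may be technical. Beyond counting noise, the common coefficient of variation between replicates was 3.6%. Pairs of static libraries differed more (chi-square per gene 3.36 to 7.71) than pairs of stretched ones (1.88 to 2.29).

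NF-kappa-B is a family of dimers of Rel-homology proteins. In resting cells the dimers are held in the cytoplasm by the inhibitor proteins of the IkB family, and signals from TNF, interleukin-1 and Toll-like receptors activate the IKK kinase complex, which marks the inhibitors for destruction by the proteasome. In a slower branch, driven by receptors such as the lymphotoxin beta receptor, the kinase NIK (Map3k14) promotes the processing of the Nfkb2 precursor and frees dimers that contain RelB. Several of the inhibitor and subunit genes are themselves induced by NF-kappa-B, which forms feedback loops, and in melanoma cells the pathway is known for its part in survival and in the expression of cytokines.

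Among the RefSeq promoter windows (250 bases before to 50 after a start site, GRCm38.p6), 8 of the 10 genes had at least 1 window. The kappa-B consensus, the 10-base site to which the dimers bind (GGG, a purine, any 2 bases, 2 pyrimidines, then CC, searched on both strands), was found in 6 of these 8: Nfkb2, Rel, Nfkbia, Nfkbie, Tnfaip2 and Tnfaip3. No match lay in the window of Rela or of Nfkbib. By the same count, over any window of a gene, the consensus was held by 12.4% of the 9892 tested genes with a window, and by single windows it occurred in 8.46% of all 32851. The stretches are shown to let the reader see how alike the matches are, with the matched bases in capitals on the strand of the gene. Overlapping matches on both strands merge into 1 run of capitals. For Nfkbia the whole 250 bases before the start are given, and for the others 30 bases around 1 match. The windows of Nfkb2 and Tnfaip2 belong to start sites inside the RefSeq span of the gene.
Nfkbia, chr12:55492648-55492897, minus strand: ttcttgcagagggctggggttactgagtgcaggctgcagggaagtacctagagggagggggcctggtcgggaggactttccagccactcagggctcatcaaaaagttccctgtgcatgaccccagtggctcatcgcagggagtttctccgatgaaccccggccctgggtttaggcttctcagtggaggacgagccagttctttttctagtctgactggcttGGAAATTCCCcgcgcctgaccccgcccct
Nfkb2, chr19:46304689-46304718, plus strand: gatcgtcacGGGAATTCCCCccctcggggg
Rel, chr11:23771041-23771070, minus strand: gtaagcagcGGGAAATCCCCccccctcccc
Nfkbie, chr17:45555584-45555613, plus strand: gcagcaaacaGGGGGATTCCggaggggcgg
Tnfaip2, chr12:111442627-111442656, plus strand: gactattttaGGAGGGCCCCtccagggtcg
Tnfaip3, chr10:19015403-19015432, minus strand: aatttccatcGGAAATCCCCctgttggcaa
The match shown began 29 bases before the start site in Nfkbia, 39 in Nfkb2, 92 in Rel, 106 in Nfkbie, 24 in Tnfaip2 and 12 in Tnfaip3. Nfkb2 had another match in the same window, from 11 bases before the start, and further ones in other windows. Tnfaip3 had another from 125 bases before the start, and none in its other window. A match is a run of letters and no evidence of binding in these cells. Of the 6 genes with a match, 4 fell under stretch and Rel and Tnfaip3 did not pass the test, and of the pair without one, Rela fell and Nfkbib did not pass.

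Under stretch, 7 of the 10 genes had lower mRNA levels and none was higher, with a call made where the p-value of the quasi-likelihood test in edgeR, adjusted by Benjamini-Hochberg over all tested genes, was under 0.05. The same 7 genes had groups of libraries that did not overlap. The share of all 12377 tested genes called was 50.9%, with 25.9% lower and 24.9% higher, so a call as such is common in these data. Groups that did not overlap were also common, at 58.5% of tested genes, and 29.4% were apart with stretch lower. Libraries were put on 1 scale by TMM, which assumes that most genes do not change. When library size alone set the scale, 4115 genes were called higher and 2402 lower, or 63.1% of calls upward, where TMM gave 49.0%. Under that scaling 5 of the 10 genes were lower and 1, Nfkbib, was higher. The median log2 fold change of the 10 genes was -0.25, against 0.0038 over all tested genes. Without stretch replicate 1, 4 of the 10 were called: Relb, Rela, Nfkb2 and Tnfaip2. In bulk RNA, fewer cells of a kind and less RNA per cell cannot be told apart.

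Melanocyte genes were abundant in every library. The 7 markers of the lineage (Mitf, Sox10, Tyr, Tyrp1, Dct, Pmel and Mlana) summed to 22400 to 24780 CPM (TMM-scaled counts per 1000000 counts) in static and 19850 to 20440 CPM in stretched libraries. Of these markers 3 fell, 1 rose and 3 did not pass. Leukocytes were looked for with 9 markers, of which 4 (Cd68, Lyz2, Itgam and Cd79a) were in the table. Their sum was 2.05 to 2.61 CPM in static and 2.01 to 2.34 CPM in stretched libraries. Ptprc, Adgre1, Csf1r, Cd14 and Cd3e were not in the table. Of 6 endothelial markers 2 were in the table, at 1.12 to 1.44 CPM in static and 1.15 to 1.32 CPM in stretched libraries. Of 6 fibroblast markers 5 were in the table, at 13.2 to 18.3 CPM and 15.96 to 17.3 CPM. The part of the change in melanocyte markers in the results below was not tested.

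**Figure D1:**
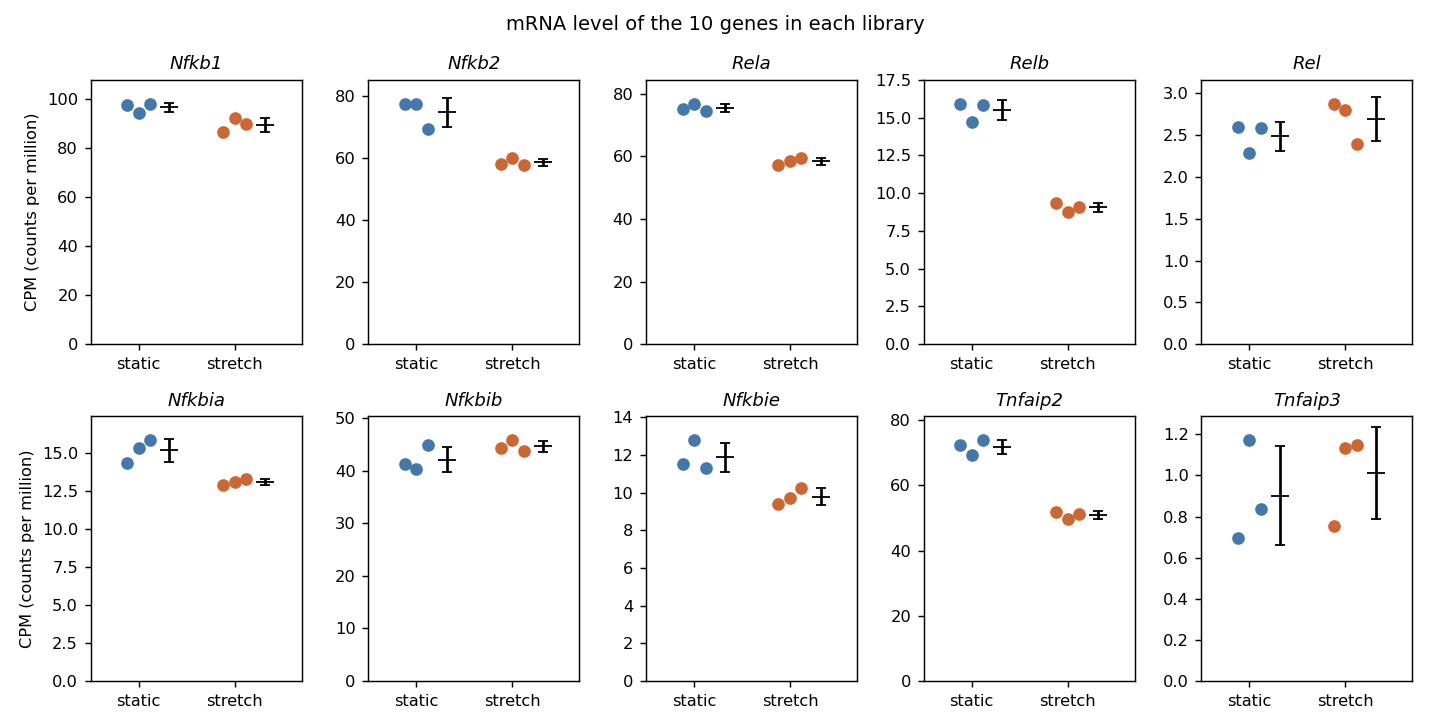
Level of each of the 10 genes in CPM (vertical axes, from 0) in the 3 static and 3 stretched libraries. Points are libraries and the bars beside them are the mean and SD; the groups are apart for 7 genes and overlap for Rel, Nfkbib and Tnfaip3.

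Of the subunit genes, 4 of 5 fell, and Relb fell the most. Relb (Entrez Gene 19698; chr7:19606217-19629438 in GRCm38) encodes the subunit that pairs with the p52 product of Nfkb2. Its level was 15.9, 14.7 and 15.9 CPM in static replicates 1, 2 and 3, and 9.35, 8.73 and 9.11 CPM in the stretched ones. Every stretched library thus lay well below every static library. The log2 fold change was -0.77 (SE 0.073, adjusted p = 7.113e-07), or 1.71-fold lower, and 261 of the 12377 tested genes had a lower value. Across 18 alternative settings of the processing it ran from -0.84 to -0.68, and Relb was called in all 18.

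Rela and Nfkb2 fell by similar amounts. Rela (Entrez Gene 19697; chr19:5637442-5648134) encodes p65, the main activating subunit, and was measured at 75.02, 76.8 and 74.4 CPM in static and 57.1, 58.5 and 59.5 CPM in stretched libraries. The groups lay far apart relative to their spread. The log2 fold change was -0.37 (SE 0.038, adjusted p = 1.926e-06), which is 22.6% lower. Nfkb2 (Entrez Gene 18034; chr19:46300994-46312400) encodes the precursor p100, which restrains RelB until it is cut to p52. Its levels were 77.6, 77.5 and 69.6 CPM in static libraries, the third being the lowest, and 58.1, 60.0 and 58.0 CPM in stretched libraries. The groups did not overlap, and the log2 fold change was -0.35 (SE 0.047, adjusted p = 2.239e-05). With an offset for the GC content and length of each gene it was smaller, at -0.22 (adjusted p = 0.002926). The log2 fold change of Rela also shrank with this offset, from -0.37 to -0.25, and still passed. Against a null of 1.2-fold (glmTreat), without the offset, Rela passed (adjusted p = 0.01627) and Nfkb2 did not (adjusted p = 0.08156). The end of Nfkb2 overlaps that of Psd on the other strand, which fell from 7.92 ± 0.573 to 5.56 ± 1.09 CPM (SD, n = 3), and the sources used here do not say whether counting kept the strands apart.

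Nfkb1 changed little, and Rel was low. Nfkb1 (Entrez Gene 18033; chr3:135584655-135691969), the gene of p105 and its product p50, was at 97.5, 94.5 and 98.2 CPM in static and 86.7, 92.4 and 89.8 CPM in stretched libraries. The groups came close but did not overlap. The log2 fold change was -0.11 (SE 0.038, adjusted p = 0.02255), or 7.57% lower. The call was lost with library size scaling (-0.053, adjusted p = 0.275) and without static replicate 1 (adjusted p = 0.07798), stretch replicate 1 (0.1396) or stretch replicate 3 (0.05176). With the offset for GC content and length the fall of Nfkb1 was larger, at -0.16 (adjusted p = 0.002725), while those of Rela and Nfkb2 were smaller. Rel (Entrez Gene 19696; chr11:23736847-23770969), the gene of c-Rel, a subunit best known in lymphocytes, had 43 to 107 counts per library. It was at 2.60, 2.29 and 2.58 CPM in static and 2.88, 2.81 and 2.40 CPM in stretched libraries, and the groups overlapped. Its log2 fold change of 0.12 did not pass (95% interval -0.19 to 0.43, adjusted p = 0.5228), so a change anywhere from 0.875 to 1.35 times the static level was not resolved at this depth. Its sign turned under the offset for GC content and length (log2 fold change -0.0077).

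**Figure D2:**
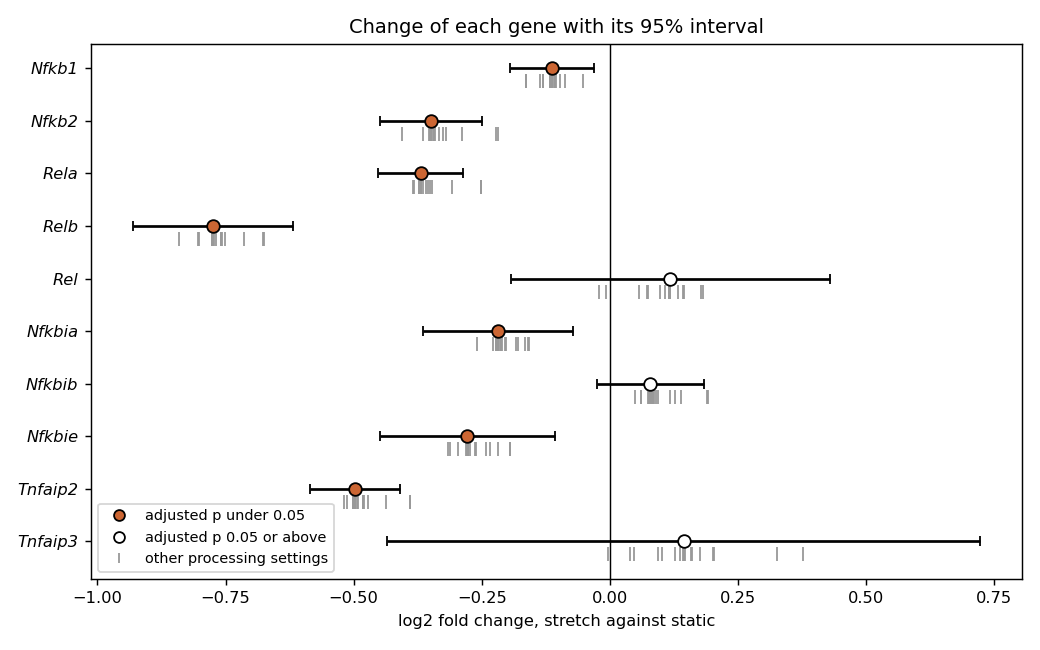
Log2 fold change of stretched against static libraries for each gene, with its 95% interval (3 libraries per group); filled points passed at an adjusted p under 0.05. Grey ticks are the values under the other processing settings: they stay below 0 for the 7 filled genes and cross 0 for Rel and Tnfaip3.

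The inhibitor genes did not move as a block. Nfkbia (Entrez Gene 18035; chr12:55489409-55492647) encodes IkB-alpha, the fast feedback inhibitor. It was at 14.3, 15.3 and 15.8 CPM in static and 12.8, 13.1 and 13.2 CPM in stretched libraries. All static values were above all stretched ones. The log2 fold change was -0.22 (SE 0.068, adjusted p = 0.01518). Nfkbie (Entrez Gene 18037; chr17:45555700-45563169), the gene of IkB-epsilon, a slower feedback inhibitor, was at 11.5, 12.8 and 11.3 CPM in static and 9.38, 9.73 and 10.3 CPM in stretched libraries. Its groups did not overlap either, and the log2 fold change was -0.28 (SE 0.080, adjusted p = 0.009075). Neither call held in every setting. That of Nfkbia was lost in 8 of 18 settings, among them DESeq2 (adjusted p = 0.06259), library size scaling (0.06841), the GC and length offset (0.0581) and the fits without static replicate 3 (0.05679) or stretch replicate 1 (0.06514). That of Nfkbie was lost in 4, among them the same offset (0.0613) and the fit without stretch replicate 1 (0.05647).

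Nfkbib (Entrez Gene 18036; chr7:28758251-28766644), the gene of IkB-beta, which binds dimers more lastingly, was the inhibitor with the highest level. It was at 41.2, 40.2 and 44.8 CPM in static and 44.3, 45.7 and 43.8 CPM in stretched libraries. Static replicate 3 lay within the stretched range. The log2 fold change of 0.078 did not pass (95% interval -0.026 to 0.18, adjusted p = 0.1966). It passed, as higher, with the offset for GC content and length (0.19, adjusted p = 0.00413), with library size scaling (0.14, adjusted p = 0.04151) and without static replicate 3 (0.13, adjusted p = 0.04015). Sirt2, whose start overlaps that of Nfkbib on the other strand in GENCODE, fell from 93.1 ± 3.62 to 80.3 ± 2.55 CPM.

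Tnfaip2 fell, and Tnfaip3 was near the limit of detection. Tnfaip2 (Entrez Gene 21928; chr12:111442450-111455018), a TNF-induced gene whose protein takes part in forming membrane tubes between cells, was at 72.4, 69.5 and 73.8 CPM in static and 51.9, 49.7 and 51.2 CPM in stretched libraries. Both groups were tight and far apart. The log2 fold change was -0.50 (SE 0.041, adjusted p = 1.662e-07), 29.2% lower, with the lowest p of the 10 genes, and it was called in all 18 alternative settings. With the offset for GC content and length the log2 fold change of Tnfaip2 was smaller, at -0.39. Tnfaip3 (Entrez Gene 21929; chr10:19000910-19015410) encodes A20, a ubiquitin-editing enzyme that shuts off signalling to IKK. It had 18, 22 and 25 counts in static and 28, 25 and 24 counts in stretched libraries, or 0.697, 1.17 and 0.838 against 0.752, 1.13 and 1.15 CPM. The groups overlapped, and the log2 fold change of 0.14 had a 95% interval of -0.43 to 0.72 (adjusted p = 0.6823), so neither a fall nor a rise of that size was resolved, and the value was -0.0038 without static replicate 1.

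The library-by-library pattern of Tnfaip2 was shared with Relb. Among 9995 genes with a mean of at least 5 CPM, the 4 whose log2 CPM over the 6 libraries had the highest Pearson correlation with Tnfaip2 were Blvrb, Dynll2, Fbxo2 and Relb (r = 0.9998, 0.9997, 0.9994 and 0.9993). This r mostly reflects the difference between the groups, and 1187 genes had an r of at least 0.95. Blvrb, a biliverdin reductase gene, fell from 52.5 ± 1.93 to 35.5 ± 1.08 CPM.

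Levels can be compared between genes once divided by transcript length, here that of the longest GENCODE transcript. In static cells Rela was the highest, at 27.8 ± 0.469 CPM per kb (SD, n = 3), followed by Nfkb1 at 23.3 ± 0.468, Nfkbib at 20.4 ± 1.16, Nfkb2 at 19.5 ± 1.202 and Tnfaip2 at 18.5 ± 0.565 CPM per kb. Nfkbib overlapped Nfkb2, and Nfkb2 overlapped Tnfaip2. Below them came Nfkbia at 9.60 ± 0.474, Relb at 4.74 ± 0.204, Nfkbie at 3.95 ± 0.257, Rel at 0.333 ± 0.0233 and Tnfaip3 at 0.146 ± 0.0392 CPM per kb, with no overlap between neighbours. In stretched cells Nfkbib (21.6 ± 0.489), Nfkb1 (21.6 ± 0.681) and Rela (21.5 ± 0.447 CPM per kb) overlapped, and Relb (2.77 ± 0.0947) lay below Nfkbie (3.26 ± 0.148 CPM per kb). This order depends on the transcript lengths assumed.

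The shares of the 5 subunits in their summed mRNA were compared next, as a description, since 3 against 3 samples cannot pass the test. The summed level of the 5 subunits was 75.6 ± 1.16 CPM per kb in static and 61.5 ± 1.11 CPM per kb in stretched libraries. Nfkb1 made up 30.7%, 29.97% and 31.8% of it in static and 34.7%, 35.7% and 35.1% in stretched libraries, so its share was larger in every stretched library. The share of Relb was 6.36%, 5.92% and 6.52% in static and 4.74%, 4.27% and 4.51% in stretched libraries, again with no overlap, and that of Rela went from 36.7% ± 0.562 to 35.0% ± 0.511. Each of these differences had an exact two-sided permutation p of 0.1, the smallest that 3 against 3 samples can give (adjusted p = 0.125 over the 5 shares). For Rel, at 0.441% ± 0.0333 and 0.587% ± 0.0607, the exact permutation p was also 0.1. The share of Nfkb2 was 25.7% ± 1.22 and 24.8% ± 0.357 (exact permutation p = 0.4). These shares carry no offset for GC content and length. In the main fit the log2 fold changes of Nfkb1, Rela and Nfkb2 were -0.11, -0.37 and -0.35. With the offset they lay closer together, at -0.16, -0.25 and -0.22, so the larger share of Nfkb1 depends in part on the processing.

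**Figure D3:**
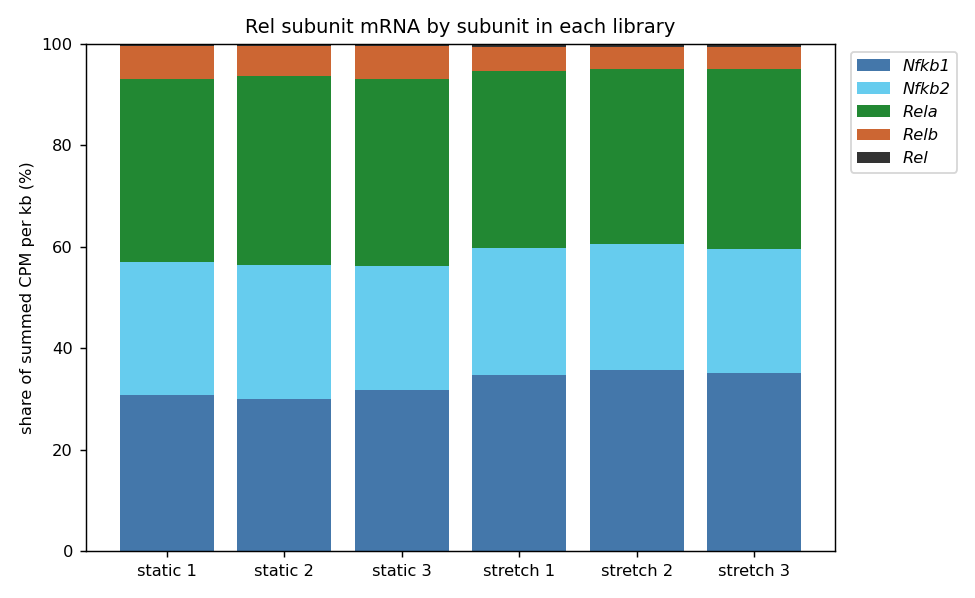
Share of each subunit in the summed CPM per kb of the 5 subunit genes (vertical axis, %) in each of the 6 libraries (horizontal axis). Nfkb1 takes 29.97% to 31.8% of the bar in static and 34.7% to 35.7% in stretched libraries, while Relb narrows from 5.92% to 6.52% down to 4.27% to 4.74%.

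The 3 inhibitor genes together held 34.0 ± 1.36 CPM per kb in static and 33.2 ± 0.494 CPM per kb in stretched libraries. The ratio of inhibitor to subunit mRNA was therefore 0.449 in static and 0.539 in stretched libraries, a difference of 0.26 on the log2 scale with no overlap between groups (exact two-sided permutation p = 0.1, the smallest possible here). Most of the inhibitor sum came from Nfkbib, at 20.4 ± 1.16 CPM per kb in static and 21.6 ± 0.489 CPM per kb in stretched libraries. Nfkbia and Nfkbie were each called lower. The protein products of Nfkb1 and Nfkb2 also act as inhibitors before they are processed, and they are counted here as subunits only.

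The wider pathway was read from the same fit by role. Over 85 other tested genes of the pathway, 28 fell, 17 rose and 40 did not pass (32.9% lower, against 25.9% of all tested genes), with a median log2 fold change of -0.058. No set test was made on these lists. Each count by role below is to be read beside the shares of all tested genes, 24.9% higher and 25.9% lower. Some roles lay near these shares. Of the tested IkB degradation genes 28.6% were higher, of the cofactors 33.3% were higher, and of the deubiquitinases and A20 partners 22.2% were lower. The adaptors and ligases were at 40.0% lower and the receptors at 62.5% lower.

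Cell-surface receptors start the pathway. Of 8 tested receptor genes 5 fell, none rose and 3 did not pass, with a median log2 fold change of -0.37. Tlr4, the receptor for bacterial lipopolysaccharide, fell from 72.0 ± 2.19 to 51.1 ± 1.18 CPM (log2 fold change -0.49, SE 0.041, adjusted p = 1.772e-07). Tnfrsf1a, the main receptor for TNF, fell from 124.0 ± 4.20 to 92.5 ± 0.766 CPM, or 1.34-fold. Ltbr, the lymphotoxin beta receptor, also fell 1.34-fold, from 72.5 ± 2.48 to 54.1 ± 0.427 CPM. The others that fell were Il17ra and Tnfrsf12a. Of 11 listed ligand genes, 3 were tested, and Il18 fell from 1.23 ± 0.382 to 0.650 ± 0.0193 CPM (adjusted p = 0.01623), a call lost without static replicate 2 (adjusted p = 0.07258) or stretch replicate 1 (0.06219). Tnf, Lta, Ltb, Il1a, Il1b, Tnfsf11, Tnfsf13b and Tnfsf14 were looked for and were not among the genes of the count table.

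Among the adaptors and ubiquitin ligases that join receptors to IKK, 6 of 15 fell, 1 rose and 8 did not pass (median -0.096). Myd88, the adaptor of Toll-like and interleukin-1 receptors, fell from 15.2 ± 0.575 to 10.8 ± 0.633 CPM (1.42-fold, adjusted p = 4.838e-05). Ripk1, a kinase of the TNF receptor complex, fell 1.17-fold, and Rbck1, a subunit of the linear ubiquitin ligase, fell 1.19-fold, with a log2 fold change of -0.25 that was -0.12 with the offset (adjusted p = 0.03176). Birc2, a ligase that holds NIK low, rose from 11.5 ± 0.901 to 13.99 ± 0.781 CPM, a call lost without static replicate 1 (adjusted p = 0.05165) or with counts thinned to the smallest library (0.05789).

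Among the kinases and their partners, 5 of 11 rose, 1 fell and 5 did not pass (median 0.11). That is 45.5% higher and 9.09% lower, where all tested genes had 24.9% and 25.9%. The count that rose was not stable: it was 1 without stretch replicate 1, 2 without static replicate 1 or with DESeq2, and 3 without static replicate 2, stretch replicate 2 or stretch replicate 3. Chuk, the gene of IKK-alpha, rose from 56.3 ± 1.87 to 66.2 ± 2.40 CPM (log2 fold change 0.23, SE 0.043, adjusted p = 4.126e-04; 0.14 with the offset, adjusted p = 0.01419). Map3k14, the gene of NIK, was at a low level and rose from 4.50 ± 0.843 to 6.30 ± 0.701 CPM (1.39-fold, adjusted p = 0.006962), and this call was lost without stretch replicate 1 (adjusted p = 0.06954). Tab3 rose 1.12-fold, a call lost with the GC and length offset (log2 fold change 0.040, adjusted p = 0.5469), with DESeq2 (0.06561), and without static replicate 1 (0.05872), stretch replicate 1 (0.05024) or stretch replicate 3 (0.05084). Its paralog Tab2, which likewise links the kinase TAK1 to ubiquitin chains, fell from 214.5 ± 0.532 to 184.0 ± 5.15 CPM.

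Atypical IkB proteins and regulators of IkB split evenly, with 2 higher, 2 lower and 1 not called of 5. Nfkbiz, the gene of the nuclear protein IkB-zeta, rose from 3.43 ± 0.353 to 5.05 ± 0.166 CPM (1.45-fold, adjusted p = 0.001504), against the direction of Nfkbia and Nfkbie. Nkiras1 and Nkiras2, paralogs that bind IkB proteins and slow their loss, moved apart: Nkiras1 rose from 8.20 ± 0.177 to 10.0 ± 1.00 CPM and the more abundant Nkiras2 fell from 96.9 ± 3.81 to 78.4 ± 2.13 CPM. The rise of Nkiras1 was lost with the offset (adjusted p = 0.06028) or without stretch replicate 1 (0.1035). Nfkbil1 fell 1.29-fold, and did not pass with that offset (adjusted p = 0.09406).

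Of 7 genes of the machinery that degrades IkB, 2 rose and none fell (median -0.0058), though 2 were called lower with the offset and 1 without static replicate 2, and 1 rose without static replicate 1 or stretch replicate 1. Skp1, a core subunit of the ligase, rose 1.101-fold and Nedd8, the modifier that activates it, rose 1.09-fold, a call lost without static replicate 1 (adjusted p = 0.06259) or stretch replicate 1 (0.05325). Of 9 deubiquitinases and partners of A20, 2 fell, 1 rose and 6 did not pass (median -0.031), and the count that fell was 4 without static replicate 3 and 5 with the offset. Tnip1, which binds A20, fell from 67.9 ± 1.67 to 55.3 ± 1.12 CPM (log2 fold change -0.30, and -0.19 with the offset, where it passed), Rnf11, another partner, fell 1.21-fold, and Usp7, a deubiquitinase, rose 1.14-fold.

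**Figure D4:**
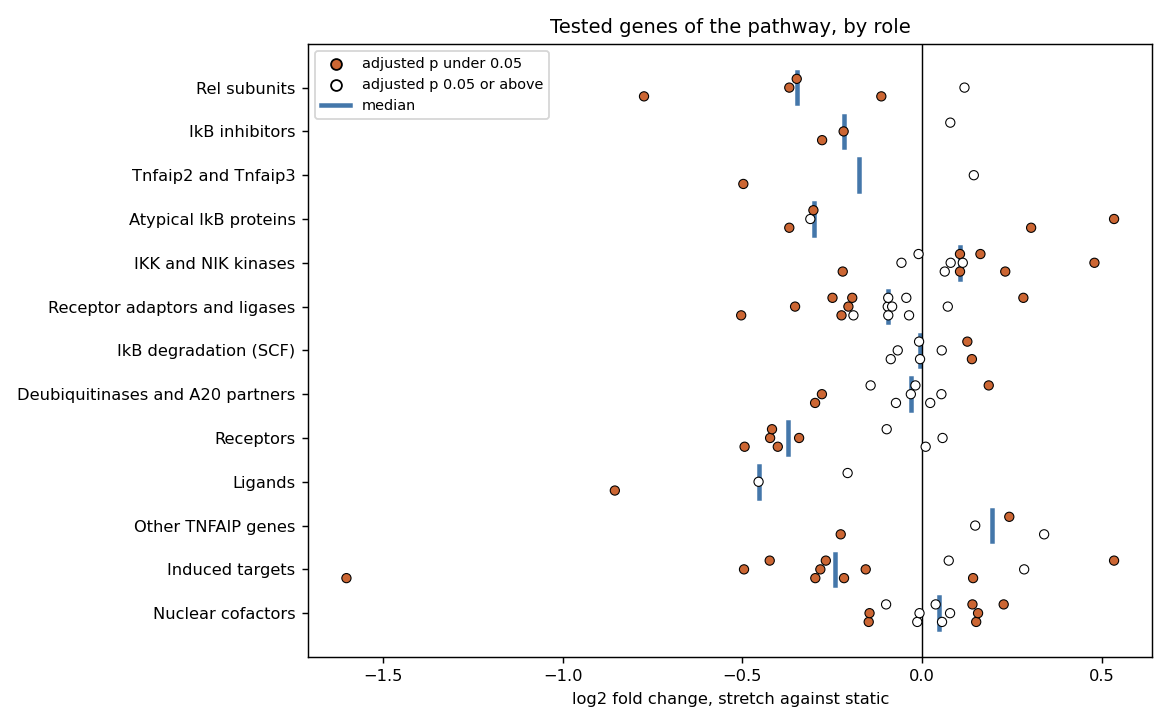
Log2 fold change of stretched against static libraries (horizontal axis) for every tested gene of the pathway, by role (rows); filled points passed at an adjusted p under 0.05 and the bars are medians. The receptor row has 5 filled points, all below 0, and the kinase row has 5 of its 6 filled points above 0.

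Of the genes that NF-kappa-B is known to induce, 8 of 12 tested fell, 2 rose and 2 did not pass (median -0.24). That is 66.7% lower and 16.7% higher, where all tested genes had 25.9% and 24.9%. The count that fell was 6 with library size scaling, with DESeq2 or with the offset, and 3 with glmTreat. Bcl2l1, the survival gene BCL-XL, fell from 56.2 ± 2.58 to 41.9 ± 1.76 CPM (1.34-fold, adjusted p = 4.682e-06). Ninj1, a membrane rupture protein gene, fell 1.23-fold, and Ehd1, a gene of membrane recycling, fell 1.204-fold. With the offset the log2 fold change went from -0.30 to -0.20 for Ninj1 and from -0.27 to -0.15 for Ehd1, and both still passed. Nfkbiz was 1 of the 2 that rose, and the other was Sod2, the mitochondrial superoxide dismutase, from 63.9 ± 0.208 to 70.5 ± 0.642 CPM, a call lost with the offset (adjusted p = 0.4817). Of the 33 targets listed, 17 were not in the count table, among them Il6, Ccl2, Cxcl1 and Vcam1. A further 4, Icam1 among them, were below the filter. Many of these genes have other inducers, and membership in the list does not say which one acts in these cells.

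The other TNFAIP genes are unrelated to each other in sequence or function beyond their naming after TNF, apart from the Tnfaip8 group. Of 4 tested, Tnfaip1, an adaptor of a ubiquitin ligase, fell from 189.7 ± 9.37 to 162.2 ± 4.04 CPM, Tnfaip8 rose from 20.2 ± 0.562 to 23.9 ± 1.00 CPM, and the other two did not pass. The count that rose was 2 without static replicate 2 or stretch replicate 1, with the replicate number as a block, with thinned counts or with library size scaling. Of 12 nuclear cofactors 4 rose, 2 fell and 6 did not pass (median 0.047), and 2 rose without static replicate 1, without stretch replicate 2, with DESeq2 or with the offset. Hdac3 and Hdac1, deacetylases of which the former acts on p65, rose 1.17-fold and 1.102-fold. Commd1, which promotes the loss of p65, rose 1.11-fold, a call lost with DESeq2 (adjusted p = 0.05437), with the offset (0.08564), or without static replicate 1 (0.08618) or stretch replicate 2 (0.0655). Rps3, a ribosomal protein that also binds p65, fell from 894.2 ± 27.2 to 806.9 ± 15.4 CPM (log2 fold change -0.15, and -0.088 with library size scaling, where it passed). The count of cofactors that fell was 1 with the offset, with library size scaling, or when any library other than static replicate 2 was left out.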

How the data were processed

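RNA of 3 static and 3 stretched samples was compared. Per the labels, RNA was extracted with Trizol and RNeasy columns and libraries followed BGI's protocols. The deposited values are estimated counts per gene, whole numbers, unscaled between samples. The submitters' processing notes name Salmon 1.4.0, mm10 and GRCm38 without saying how each was used. The sources used here give neither the strand setting nor the index. Totals were 19469286 to 36351400 counts per library. Symbols came from RefSeq (GRCm38.p6), for 14875 of 14883 genes; lengths and GC content from GENCODE M21.

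In edgeR 4.0.16 (R 4.3.3), genes passing filterByExpr (minimum count 10; 12377 genes) were scaled by TMM and tested by quasi-likelihood with the group alone (4 residual degrees of freedom), with Benjamini-Hochberg adjustment over all of them. SE is the log2 fold change over the root of F; intervals are 95%. The procedure was tested on simulated counts in which only a small part of the genes changed. That simulation cannot show how the scaling or the calls behave where 50.9% of tested genes are called. The members, the pathway lists and the rule for named genes (the 3 lowest p per direction in each list, or the 2 most abundant where none was called) were chosen with earlier results of these data known. Il17ra, Tnfrsf12a, Icam1, Ccl5 and Cxcl10 were named outside that rule, after their values were seen. Alternatives were RLE, upper quartile and library size scaling, no count filter, at least 5 CPM in 3 libraries, DESeq2 1.42.0, limma-voom (limma 3.58.1), glmTreat, a replicate block, a GC and length offset, thinned counts and each library left out. A cofactor gene that the rule names is not reported here.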

Additional observations from a re-analysis of the deposited data

How the results depend on the processing

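Over the 12377 genes, 6298 were called, and 1592 when tested against 1.2-fold with glmTreat; with each library left out in turn the count ran from 5153 to 6331. Of the 10 genes, 7 were called, 3 against 1.2-fold (Relb, Rela and Tnfaip2), and 4 to 7 with a library left out, the lowest without stretch replicate 1. Relb, Rela and Tnfaip2 were called in all 18 alternative settings and Nfkb2 in 17. No called direction of these 10 genes reversed. The causes of the lost calls were not tested, except that glmTreat asks for a larger change by construction. The replicate numbers showed no pairing: same-numbered libraries deviated from their group means with correlations of -0.0118, 0.00505 and -0.077. With the number as a replicate block 5967 genes were called, and the same 7 of the 10; with the block and the GC and length offset together 5558 genes were called, with 5 of the 10 lower (Nfkbia and Nfkbie were lost) and Nfkbib higher (log2 fold change 0.19, adjusted p = 0.00921). Of the comparisons per length, no difference changed sign with median transcript lengths, with no division by length or with a library left out. Of the pathway counts, the 5 receptor genes that fell were 5 in every alternative except glmTreat (4), and the 5 kinase genes that rose were 1 to 5 with a library left out and 0 with glmTreat, and 3 with the replicate block, with no count filter or with thinned counts. The 8 induced targets that fell were 7 to 8 with a library left out and 3 with glmTreat. They were 6 with library size scaling, with DESeq2 or with the GC and length offset. Depth limits Tnfaip3 and Rel most; with at least 5 CPM required in 3 libraries neither was tested.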

Other observations

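Ccl5, a chemokine gene induced by NF-kappa-B and by interferon regulatory factors, had the largest change among the tested pathway genes, and was named here, with Cxcl10, after the values were seen. It fell from 1.73 ± 0.253 to 0.559 ± 0.273 CPM (SD, n = 3; log2 fold change -1.60, SE 0.28, adjusted p = 2.494e-04 in edgeR's quasi-likelihood test). Its level rested on 49, 35 and 43 counts in static and 22, 6 and 17 counts in stretched libraries. Cxcl10, another chemokine gene of this kind, fell from 5.75 ± 0.389 to 4.07 ± 0.129 CPM (adjusted p = 0.001415).

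Over the tested genes with a RefSeq promoter window, the kappa-B consensus was found in any window of 13.3% of the 2620 genes called lower, 11.3% of the 2509 called higher and 12.5% of the 4763 not called.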
